A study of Mus musculus with 12 samples.

Results

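The 10 genes described here are the platinum lesion repair and bypass genes Xpc, Ddb2, Xpa, Ercc1, Ercc4, Ercc5, Polh, Polk, Rev1 and Poln, taken by symbol from the 55885 genes listed in the expression table. All 10 passed the expression filter (1 TPM or more in no fewer than 3 hearts), as did 13815 genes in all. RNA-seq was performed on cardiac tissue of male C57BL/6J mice, 8 weeks old at the start, in 4 groups of 3 hearts. Saline hearts came from wild-type mice given no cisplatin (labelled untreated, and described in the methods as saline controls). CDDP hearts came from wild-type mice given 6 mg/kg cisplatin by intraperitoneal injection on days 1, 8 and 15 and examined on day 22. STING-/- and STING-/-+CDDP hearts came from Tmem173-/- mice (Tmem173 is the older symbol of Sting1) without and with the same cisplatin course. Wild-type and STING-/- mice were obtained from different suppliers, so that genotype and source cannot be told apart. The wild-type and knockout animals otherwise carried no further allele or agent named in the labels. Each heart was a separate sample, and the sources used here do not say whether a shared number links hearts across groups.

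Cisplatin forms adducts on purine bases, mostly links between neighbours on one strand and, less often, crosslinks between strands. Nucleotide excision repair removes the intrastrand adducts. XPC and the DDB2 subunit of the UV-damaged DNA-binding complex find the distorted helix, XPA checks the lesion, and the nucleases ERCC1-ERCC4 (XPF) and ERCC5 (XPG) cut on the 5′ and the 3′ side of it. Where a lesion is still present during copying, translesion polymerases bypass it. Polymerase eta (Polh) is known for inserting bases opposite platinum adducts, polymerase kappa (Polk) for extending from distorted ends, and REV1 for recruiting the other polymerases. Polymerase nu (Poln) is a low-fidelity A-family polymerase that can copy past some lesions, and its action on platinum adducts was not examined here. Adult heart muscle cells rarely divide, and transcript level is not repair activity.

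The start regions of 4 of the 5 genes that rose with cisplatin in wild-type hearts are shown first, without Poln. RefSeq promoter windows (build GRCm38.p6, 250 bases before to 50 after the start) were used for 7 of the 10 genes, with 8 windows, since Polk has 2. None was used for Xpc, Ddb2 and Poln. In the 4 windows below, read 5′ to 3′ on the gene's strand, capitals mark the CCAAT box (letters CCAAT, or ATTGG where the box lies on the other strand).
Ercc1, chr7:19344821-19345120, forward strand: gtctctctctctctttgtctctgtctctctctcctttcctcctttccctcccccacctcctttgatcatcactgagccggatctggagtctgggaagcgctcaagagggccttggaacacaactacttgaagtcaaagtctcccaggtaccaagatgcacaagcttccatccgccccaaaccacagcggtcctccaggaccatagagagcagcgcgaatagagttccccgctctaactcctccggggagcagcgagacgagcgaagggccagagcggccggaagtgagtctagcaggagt
Ercc4, chr16:13109486-13109785, forward strand: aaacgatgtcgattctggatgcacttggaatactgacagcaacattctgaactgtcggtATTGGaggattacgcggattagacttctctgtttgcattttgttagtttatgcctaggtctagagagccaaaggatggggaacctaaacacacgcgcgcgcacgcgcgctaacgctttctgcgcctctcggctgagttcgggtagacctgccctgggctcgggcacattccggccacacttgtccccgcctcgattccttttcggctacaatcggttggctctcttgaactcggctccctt
Ercc5, chr1:44147494-44147793, forward strand: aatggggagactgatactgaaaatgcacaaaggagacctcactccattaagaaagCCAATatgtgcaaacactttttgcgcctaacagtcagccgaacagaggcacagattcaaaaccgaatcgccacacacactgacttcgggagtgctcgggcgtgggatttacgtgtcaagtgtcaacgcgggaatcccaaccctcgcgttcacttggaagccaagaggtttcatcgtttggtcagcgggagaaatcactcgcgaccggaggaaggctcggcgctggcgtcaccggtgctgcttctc
Xpa, chr4:46196262-46196561, reverse strand: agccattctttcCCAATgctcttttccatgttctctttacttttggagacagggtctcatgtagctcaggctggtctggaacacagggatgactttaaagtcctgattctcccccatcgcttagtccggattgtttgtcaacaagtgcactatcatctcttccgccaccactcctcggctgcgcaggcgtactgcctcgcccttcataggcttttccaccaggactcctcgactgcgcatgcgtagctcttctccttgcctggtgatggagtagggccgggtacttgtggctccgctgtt

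A CCAAT box was present in 3 of the 8 windows (Ercc4, Ercc5 and Xpa), and 37.4% of all 32851 promoter windows held one. The 4 windows printed above were picked by the rise of their genes. The GC box (letters GGGCGG, either strand) was present in 4 of the 8 (Ercc1, Polh, Polk and Rev1), against 35.7% of all windows. The p53 half-site was found in 1 window, an internal start of Polk (8.36% of all windows). The E-box CACGTG was found in Rev1 (7.15%). The AP-1 motif TGANTCA (7.81%) and the CRE motif TGACGTCA (1.79%) were in none of the 8 windows. None of these motifs contains another of them.

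TPM, which corrects for transcript length and for the total of each heart, allows the genes to be ordered by level. Ercc1 was the most abundant in every group, with a mean of 38.5 TPM over 12 hearts, at the 84.9 percentile of the tested genes. Xpa followed at 9.88 TPM. Ercc5 (6.68), Rev1 (6.61) and Xpc (6.19 TPM) were neighbours in this order whose ranges over hearts overlapped. Poln (3.91), Ercc4 (3.75), Polh (2.92), Ddb2 (2.70) and Polk (2.68 TPM) lay lowest, again with overlapping ranges. Ercc4, whose protein works bound to ERCC1, was thus listed at a fraction of its partner's TPM in each heart. Poln varied most, with 26.7-fold between its highest and its lowest heart, whereas the other genes varied by 1.93- to 4.32-fold. These means and ranges pool treated and untreated hearts. By group mean Poln ranked last of the 10 in Saline (0.893 TPM) and STING-/- hearts (1.42 TPM). It ranked 7 in CDDP (4.04 TPM) and 3 in STING-/-+CDDP hearts (9.29 TPM).

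With cisplatin, transcripts of the incision and verification genes and of Poln were higher in wild-type hearts, whereas the transcript of the polymerase best known for platinum bypass, Polh, was not. Of the 10 genes, 5 rose in CDDP against Saline hearts (limma on log2(TPM + 1), Benjamini-Hochberg adjusted p under 0.05 over all tested genes), namely Ercc1, Ercc4, Ercc5, Xpa and Poln. Among all tested genes 18.9% passed in either direction, 8.52% passed as higher and 10.4% as lower. Averaged over both genotypes the same 5 genes rose, against 19.8% of tested genes that passed and 7.28% that rose. In STING-/- hearts 1 of the 10, Poln, rose with cisplatin, where 0.934% of all tested genes passed and 0.253% passed as higher. The median log2 fold change of the 10 genes was 0.49 in wild-type hearts and 0.36 in STING-/- hearts, against -0.003 and -0.11 over all tested genes. The 3 CDDP hearts lay above all 3 Saline hearts for 6 of the 10 (Ercc1, Ercc4, Ercc5, Xpa, Polk and Poln), and among all tested genes 32.0% had groups that did not overlap and 14.9% did so in this direction. The STING-/-+CDDP hearts lay above all STING-/- hearts for 4 (Xpc, Ercc1, Xpa and Poln), against 24.2% of all tested genes in either direction and 7.28% in this one. The wild-type calls borrow the spread of all 4 groups. In a fit of the Saline and CDDP hearts alone the adjusted p of these 5 genes was 0.0755 to 0.144, and none passed. In that fit 822 of 13815 tested genes passed. An exact permutation test of 3 against 3 hearts cannot give a p under 0.10.

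**Figure D1:**
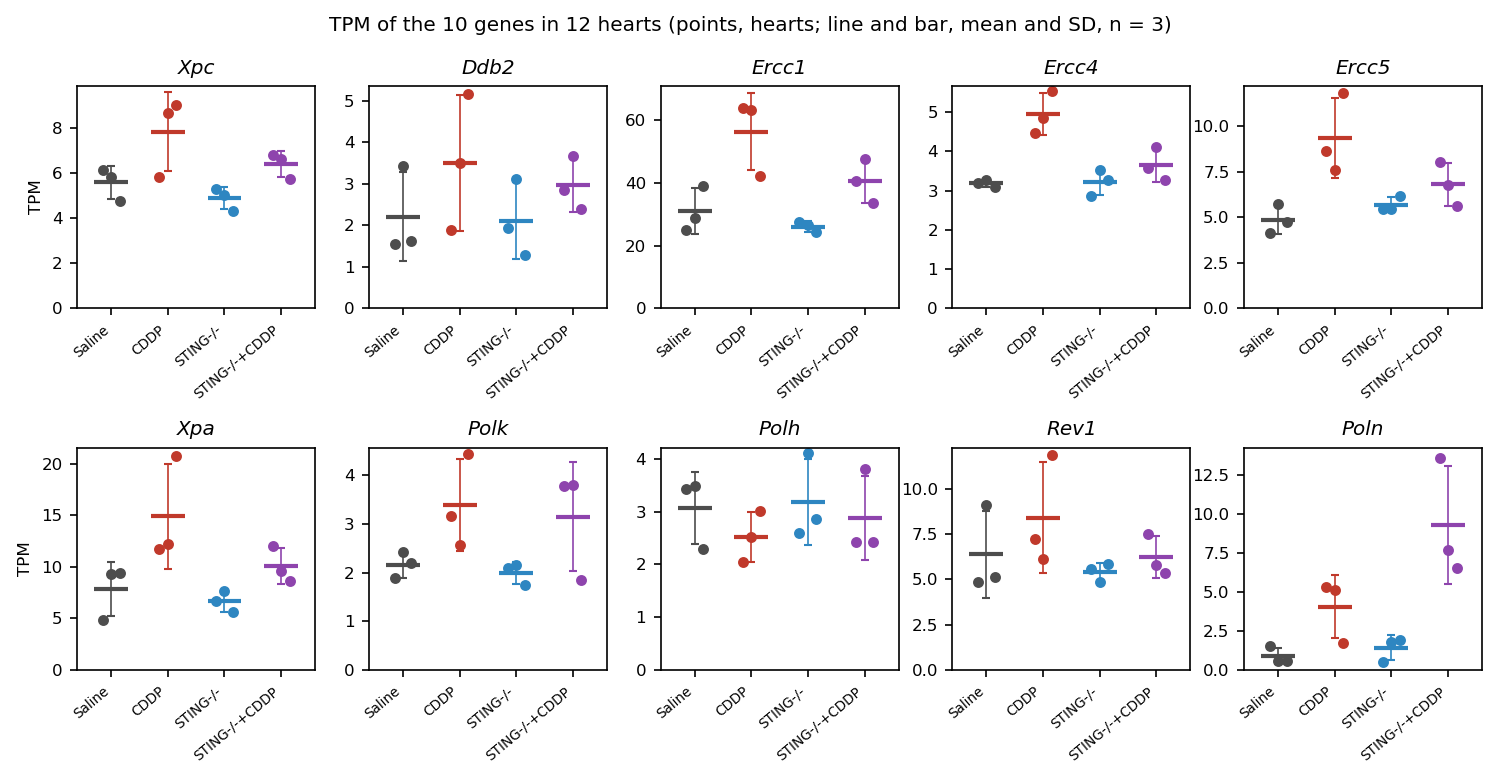
TPM of each of the 10 genes (vertical axes, linear and starting at 0) in the Saline, CDDP, STING-/- and STING-/-+CDDP hearts. Points are hearts, horizontal lines are group means and bars are SD (n = 3). Poln, Ercc1 and Xpa show cisplatin hearts above the untreated hearts of the same genotype in both genotypes, and Polh does so in neither.

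The damage sensors Xpc and Ddb2 did not pass the test in either genotype with unscaled TPM and all 12 hearts, and for Xpc in wild-type hearts this depended on the scaling and on 1 heart. Xpc was at 6.16, 5.84 and 4.78 TPM in Saline hearts, 5.83, 8.68 and 9.06 in CDDP, 5.32, 5.04 and 4.34 in STING-/- and 6.82, 6.65 and 5.74 in STING-/-+CDDP. One CDDP heart lay within the Saline range, and the STING-/-+CDDP hearts all lay above the STING-/- hearts. The log2 fold change was 0.41 (95% interval 0.02 to 0.80) in wild-type hearts and 0.33 (-0.06 to 0.72) in STING-/- hearts, with limma adjusted p of 0.127 and 0.455. In wild-type hearts Xpc passed with median-of-ratios scaling (adjusted p = 0.0328), with quantile normalization (0.0323) and without CDDP 1 (0.0342). Averaged over both genotypes, Xpc was higher by 0.37 on the log2 scale (adjusted p = 0.0593, exact permutation within genotypes p = 0.015), just outside the threshold. Where the hearts were rescaled by the median of ratios it passed (0.43, adjusted p = 0.00586), and it also passed without CDDP 1 (0.0154). Ddb2, the sensor that hands lesions to XPC in chromatin, was at 1.54, 3.44 and 1.63 TPM in Saline and 1.88, 3.50 and 5.16 in CDDP hearts, which overlapped. In STING-/- hearts it was at 1.93, 3.11 and 1.28 TPM and in STING-/-+CDDP hearts at 2.84, 3.68 and 2.39. Its mean difference with cisplatin of 0.43 did not pass (adjusted p = 0.21, limma), and the interval from -0.07 to 0.93 also holds a near doubling. The difference passed with quantile normalization (0.55, adjusted p = 0.0279) and with array weights (0.59, adjusted p = 0.038).

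Xpa, the verification factor, was at 4.82, 9.35 and 9.37 TPM in Saline hearts and 11.69, 12.26 and 20.81 in CDDP hearts. STING-/- hearts had 6.66, 7.68 and 5.61 TPM and STING-/-+CDDP hearts 12, 9.62 and 8.66. In both genotypes the treated hearts lay above the untreated ones without overlap. Xpa rose by 0.85 on the log2 scale in wild-type hearts (95% interval 0.27 to 1.44, limma adjusted p = 0.0455) and the difference in STING-/- hearts was 0.53 (-0.05 to 1.12, adjusted p = 0.417). Over both genotypes the rise was 0.69 (adjusted p = 0.025; exact p = 0.005 within genotypes, the smallest these 400 arrangements can give). The call over both genotypes was lost without any one of Saline 1, STING-/- 1, STING-/- 3 or STING-/-+CDDP 1 (adjusted p 0.0501 to 0.0626) and with no expression filter (0.057). The wild-type call rested on single hearts. It was lost without any one of 10 of the 12 hearts, with adjusted p from 0.0527 (without CDDP 2) to 0.17 (without Saline 1), and it held without Saline 2 and without CDDP 1.

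Ercc1 and Ercc4 encode the subunits of the 5′ nuclease, which also acts in crosslink repair. Ercc1 was at 24.82, 28.96 and 39.08 TPM in Saline hearts, 63.83, 63.16 and 42.10 in CDDP, 27.49, 26.46 and 24.29 in STING-/- and 40.77, 47.63 and 33.60 in STING-/-+CDDP. No treated heart reached down to an untreated heart of its genotype. Ercc1 rose by 0.84 (95% interval 0.39 to 1.30, limma adjusted p = 0.0171) in wild-type hearts, and by 0.73 (0.41 to 1.05, adjusted p = 0.00622, exact p = 0.005) over both genotypes. The difference in STING-/- hearts alone was 0.61 (0.16 to 1.06) with an adjusted p of 0.209. The wild-type call of Ercc1 was lost without Saline 1 (adjusted p = 0.0756), CDDP 1 (0.0506) or CDDP 2 (0.0505), while the rise over both genotypes passed without each of the 12 hearts in turn.

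Ercc4 was the steadiest of the 10 genes in Saline hearts, at 3.19, 3.28 and 3.10 TPM, and was at 2.86, 3.51 and 3.26 in STING-/- hearts. It reached 4.46, 4.86 and 5.53 TPM in CDDP and 3.58, 4.10 and 3.26 in STING-/-+CDDP hearts. The CDDP hearts stood above every other heart of the study, and the STING-/-+CDDP hearts overlapped the STING-/- hearts. Ercc4 rose by 0.50 in wild-type hearts (0.18 to 0.82, limma adjusted p = 0.0341) and by 0.32 over both genotypes (0.10 to 0.55, adjusted p = 0.0475). The difference in STING-/- hearts was 0.14 (-0.18 to 0.46). Both calls were close to the threshold. The call over both genotypes was lost without any one of 11 hearts (adjusted p 0.0514 to 0.111) and held without CDDP 1. The wild-type call was lost without any one of Saline 1, 2 or 3, CDDP 2 or 3, STING-/- 3 or STING-/-+CDDP 1 (0.05 to 0.0984).

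Ercc5 encodes the 3′ nuclease. It was at 4.14, 5.72 and 4.73 TPM in Saline hearts and 8.66, 7.62 and 11.83 in CDDP hearts, without overlap. STING-/- hearts had 5.45, 5.44 and 6.17 TPM and STING-/-+CDDP hearts 8.02, 6.80 and 5.64, where the lowest treated heart fell within the untreated range. Ercc5 rose by 0.81 in wild-type hearts (0.40 to 1.22, limma adjusted p = 0.0128), and the difference in STING-/- hearts was 0.22 (-0.19 to 0.63, adjusted p = 0.66). Over both genotypes the rise was 0.51 (adjusted p = 0.0194, exact p = 0.01). Leaving out Saline 1 ended the wild-type call (adjusted p = 0.0588). Leaving out Saline 1 or STING-/-+CDDP 1 ended the call over both genotypes (0.053 and 0.0525).

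Among the Y-family polymerases none passed the test in either genotype with unscaled TPM (limma, 0 of 3 at an unadjusted p under 0.05 within a genotype), and Polk passed in wild-type hearts with quantile normalization (0.52, adjusted p = 0.0317). Polk was at 1.88, 2.42 and 2.19 TPM in Saline, 3.17, 2.57 and 4.44 in CDDP, 2.10, 2.15 and 1.74 in STING-/- and 3.78, 3.81 and 1.85 in STING-/-+CDDP hearts. The wild-type groups did not overlap, whereas 1 of the STING-/-+CDDP hearts lay within the STING-/- range. The difference over both genotypes was 0.44 (0.09 to 0.80), with an adjusted p of 0.0779 and an exact p of 0.025, and without that heart (STING-/-+CDDP 3) it passed at an adjusted p of 0.0211. Median-of-ratios scaling gave 0.49 for Polk, which also passed (adjusted p = 0.0127). Polh was at 3.44, 3.49 and 2.29 TPM in Saline, 2.05, 2.52 and 3.01 in CDDP, 2.59, 4.12 and 2.86 in STING-/- and 2.42, 3.81 and 2.42 in STING-/-+CDDP hearts. All groups overlapped. The mean difference was -0.16 (adjusted p = 0.512), and its interval of -0.49 to 0.18 does not reach a rise of the size fitted for Ercc1, Xpa or Poln. Rev1 was at 4.85, 9.14 and 5.15 TPM in Saline, 7.21, 6.13 and 11.90 in CDDP, 5.57, 4.87 and 5.83 in STING-/- and 7.53, 5.82 and 5.33 in STING-/-+CDDP hearts, with overlap in both genotypes. Its mean difference of 0.26 (-0.14 to 0.65) had an adjusted p of 0.36.

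Poln changed most. It was at 1.50, 0.59 and 0.59 TPM in Saline hearts and 5.30, 5.13 and 1.70 in CDDP hearts. In STING-/- hearts it was at 0.51, 1.81 and 1.94 TPM, and in STING-/-+CDDP hearts at 13.62, 7.72 and 6.52. Treated hearts lay above untreated hearts in both genotypes, narrowly for CDDP 3, and the STING-/-+CDDP hearts were above every other heart. Poln rose by 1.35 on the log2(TPM + 1) scale in wild-type hearts (0.50 to 2.20, limma adjusted p = 0.0335), by 2.09 in STING-/- hearts (1.24 to 2.94, adjusted p = 0.0301) and by 1.72 over both genotypes (1.12 to 2.32, adjusted p = 0.00183, exact p = 0.005). Since low values are damped on this scale, the ratios of mean TPM were larger, at 4.53 in wild-type and 6.54 in STING-/- hearts. By the fitted change over both genotypes Poln ranked 51 of 13815 tested genes. The wild-type call was lost without Saline 2, Saline 3, CDDP 1 or CDDP 2 (adjusted p 0.075 to 0.0983) and the STING-/- call without any one of the 6 STING-/- or STING-/-+CDDP hearts (0.0738 to 0.134), while the call over both genotypes held without each of the 12 hearts in turn (0.00112 to 0.00565).

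The sum of the 10 genes was 56.34 to 72.91 TPM in Saline hearts and 114.1 to 116.4 in CDDP hearts, and 57.32 to 64.19 TPM in STING-/- and 75.41 to 101.4 in STING-/-+CDDP hearts. Ercc1 alone supplied 36.44% to 55.95% of this sum in CDDP hearts and 40.09% to 53.6% in Saline hearts. Without Ercc1 the sum was 31.52 to 43.27 TPM in Saline and 50.25 to 73.44 TPM in CDDP hearts, so the separation was also present in the other genes together.

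Genotype was compared within each treatment. Without cisplatin no gene differed between STING-/- and Saline hearts (limma, 0 of 10, also 0 at an unadjusted p under 0.05, with 0.0724% of all tested genes passing). The fitted differences ran from -0.22 (Ercc1) to 0.33 (Poln), and all 10 pairs of groups overlapped, where 7.64% of tested genes did not. Under cisplatin none of the 10 passed between STING-/-+CDDP and CDDP hearts, against 1.22% of tested genes, and 2 of the 10 had an unadjusted p under 0.05. These were Ercc4, lower by -0.36 (-0.68 to -0.04, adjusted p = 0.206), and Poln, higher by 1.07 (0.22 to 1.92, adjusted p = 0.164), and they were also the 2 genes whose groups did not overlap (22.7% of tested genes). Ercc1, Ercc5 and Xpa had estimates of -0.45, -0.40 and -0.49, with intervals that reached 0.004, 0.01 and 0.10.

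The interaction term tests whether the cisplatin difference itself depended on genotype. None of the 10 genes passed (limma, 0.00724% of tested genes did), and 1 had an unadjusted p under 0.05. That gene was Ercc5, whose cisplatin difference was smaller in STING-/- hearts by -0.59 (-1.17 to -0.02, unadjusted p = 0.0447 and adjusted p = 0.415 by limma, not by an exact test). For Ercc4 the term was -0.36 (-0.81 to 0.09) and for Poln 0.74 (-0.46 to 1.94), in the opposite direction. The other 7 terms lay between -0.32 and 0.09. Although 5 genes passed in wild-type and 1 in STING-/- hearts, a difference in response was therefore not shown for any gene, and with 3 hearts a group the intervals leave room for sizeable ones.

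**Figure D2:**
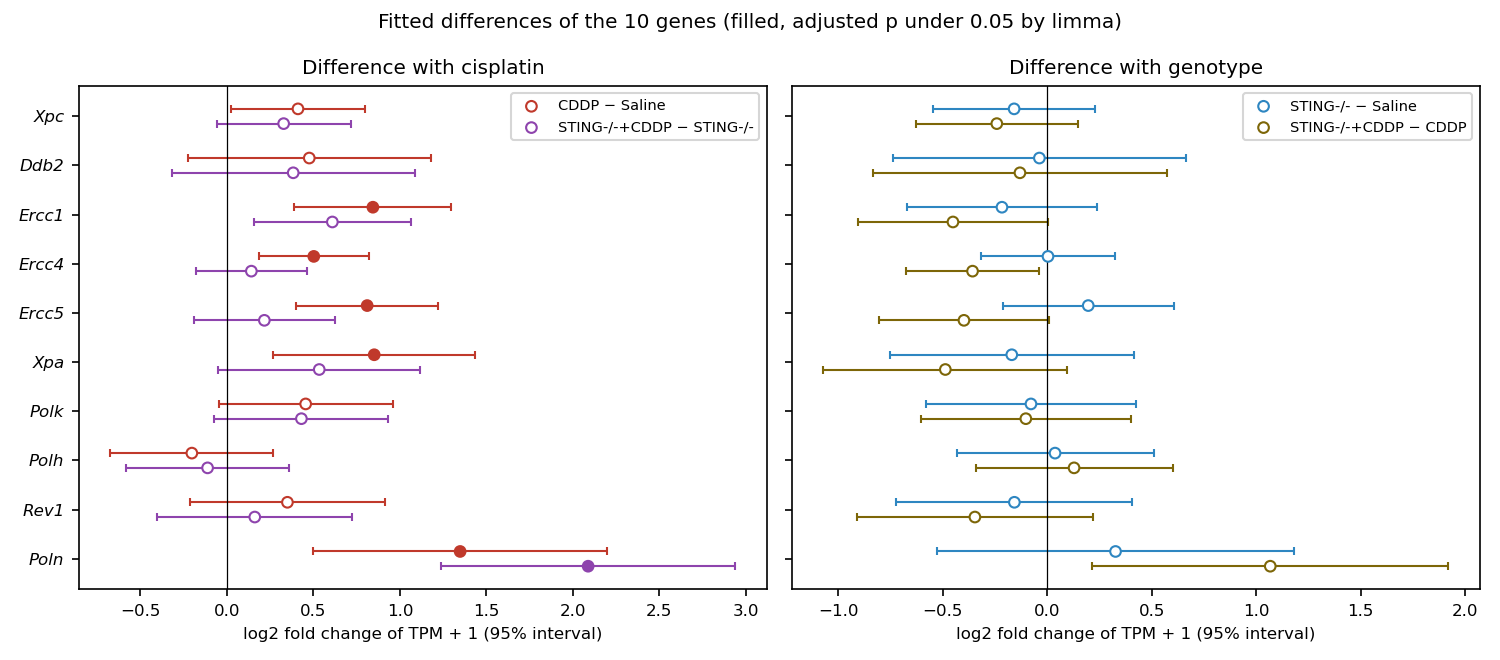
Fitted log2 fold changes of TPM + 1 with 95% intervals (horizontal axes) for the 10 genes. The left panel gives cisplatin against untreated hearts within wild-type and within STING-/- mice, and the right panel gives STING-/- against wild-type hearts without and with cisplatin. Filled symbols passed at an adjusted p under 0.05. The 5 wild-type genes that passed and Poln in STING-/- hearts lie to the right of 0, and no symbol is filled in the right panel.

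Several of the 10 genes share exons or a start region with another gene, and the strand setting of the counting is not given in the sources used here, so that reads from overlapping genes on opposite strands may not have been kept apart. In GENCODE M21 (GRCm38), Ercc1 (chr7:19344778-19356524, forward strand) shares 106 exonic bases with Cd3eap on the other strand. Cd3eap was at 4.84 ± 0.551 TPM in Saline and 6.30 ± 0.441 in CDDP hearts (SD, n = 3). Its log2 difference of 0.33 did not pass (adjusted p = 0.118). Xpa (chr4:46155347-46196311, reverse strand) shares 77 exonic bases with Ncbp1, whose difference in wild-type hearts was 0.07 (adjusted p = 0.819). Ercc4 (chr16:13109684-13150617) and Ercc5 (chr1:44147744-44181260), both on the forward strand, had no such neighbour.

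Poln (chr5:34007179-34169448, reverse strand) shares 108 exonic bases with Haus3, a gene of the mitotic spindle complex augmin that lies on the same strand at its start. Haus3 was at 1.74 ± 0.286 TPM in Saline, 2.70 ± 0.926 in CDDP, 2.28 ± 0.734 in STING-/- and 1.58 ± 0.174 in STING-/-+CDDP hearts (SD, n = 3). Haus3 had its highest mean in CDDP and its lowest in STING-/-+CDDP hearts. With cisplatin it differed by 0.41 in wild-type hearts (limma adjusted p = 0.207) and by -0.33 in STING-/- hearts (adjusted p = 0.554). The mean of these opposite differences was 0.04 (adjusted p = 0.879). The part of shared bases in the level of Poln was not tested. An antisense transcript that shares 113 exonic bases with Poln, 4930557J02Rik, was listed at 0 in all 12 hearts.

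Rev1 (chr1:38052786-38129801, reverse strand) shares 1643 exonic bases with Eif5b, a translation initiation factor on the other strand. Eif5b was at 12.19, 13.13 and 7.89 TPM in Saline and 18.65, 15.06 and 22.14 in CDDP hearts, and it rose by 0.71 (adjusted p = 0.0385). The TPM of Rev1 is therefore uncertain. Ddb2 (chr2:91211572-91236982, reverse strand) shares 652 exonic bases with Acp2, a lysosomal phosphatase on the other strand that was lower in CDDP hearts by -0.38 (adjusted p = 0.147). Xpc (chr6:91489305-91515888), Polk (chr13:96480690-96542579) and Polh (chr17:46171355-46202645), all on the reverse strand, start 40, 39 and 137 bases from Lsm3, Col4a3bp and Xpo5, which run the other way. None of these 3 neighbours passed with cisplatin over both genotypes, with differences of -0.18, -0.06 and -0.03.

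**Figure D3:**
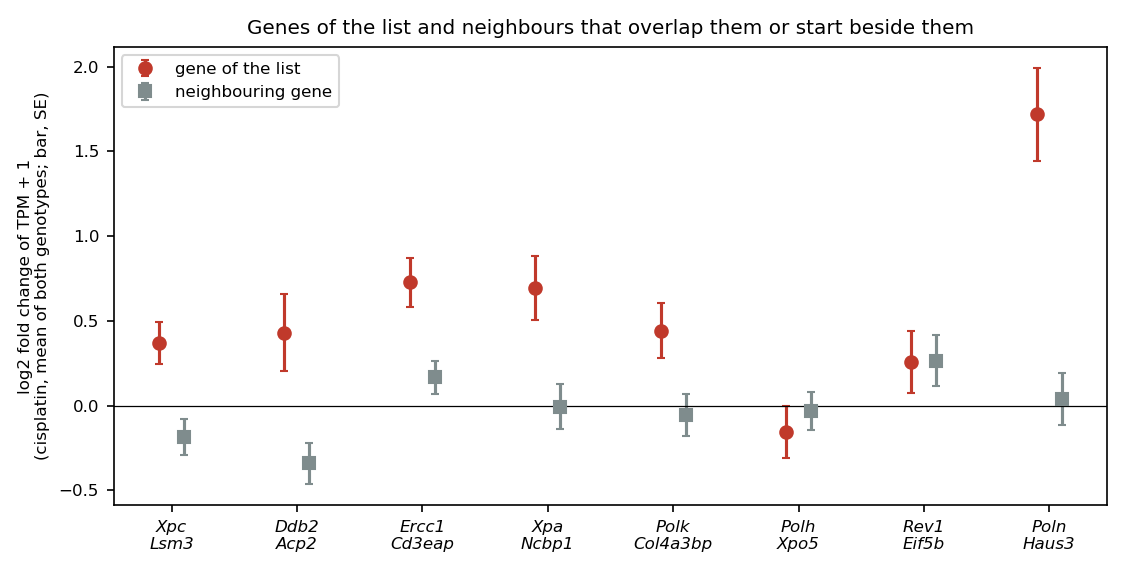
Log2 fold change of TPM + 1 with cisplatin, averaged over both genotypes, for each gene of the list (circles) and the neighbour that overlaps it or starts beside it (squares). Bars are SE. Poln, Ercc1 and Xpa lie at 1.72, 0.73 and 0.69, and their neighbours Haus3, Cd3eap and Ncbp1 at 0.04, 0.17 and -0.01. The value of Haus3 averages 0.41 in wild-type and -0.33 in STING-/- hearts.

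Within a heart, the ratio of 2 genes is independent of the scaling of that heart. Of the 4 pairs taken, 3 encode partner proteins, whereas Polk and Polh are separate Y-family polymerases. The ratio of Polk to Polh was 0.547, 0.693 and 0.956 in Saline hearts, 1.55, 1.02 and 1.48 in CDDP, 0.811, 0.522 and 0.608 in STING-/- and 1.56, 1.00 and 0.764 in STING-/-+CDDP hearts. All CDDP hearts lay above all Saline hearts, and 1 STING-/-+CDDP heart lay within the STING-/- range. The ratio was higher with cisplatin by 0.82 on the log2 scale (exact permutation within genotypes p = 0.01, adjusted p = 0.04 over 4 ratios). Without single hearts the difference was 0.68 to 0.93 and passed in 3 of the 12 fits (without CDDP 1, CDDP 3 or STING-/-+CDDP 3, adjusted p 0.02 to 0.04), with 0.06 to 0.1 in the others. The ratio of Ercc1 to Ercc4 was 7.61 to 14.3 in CDDP and 7.78 to 12.6 in Saline hearts, with a difference over both genotypes of 0.34 (exact p = 0.1, adjusted p = 0.133). In STING-/- hearts alone this ratio did not overlap, at 7.45 to 9.61 without and 10.3 to 11.6 with cisplatin. Xpc to its partner Rad23b gave 0.33 (exact p = 0.06, adjusted p = 0.12). The Xpc to Rad23b ratio also did not overlap in STING-/- hearts, at 0.102 to 0.163 without and 0.174 to 0.196 with cisplatin. Ddb2 to Ddb1 gave 0.26 (exact p = 0.37). These 3 ratios did not pass with all hearts, while Ercc1 to Ercc4 passed without CDDP 3 and Xpc to Rad23b without CDDP 1 (adjusted p = 0.04 each, exact tests).

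**Figure D4:**
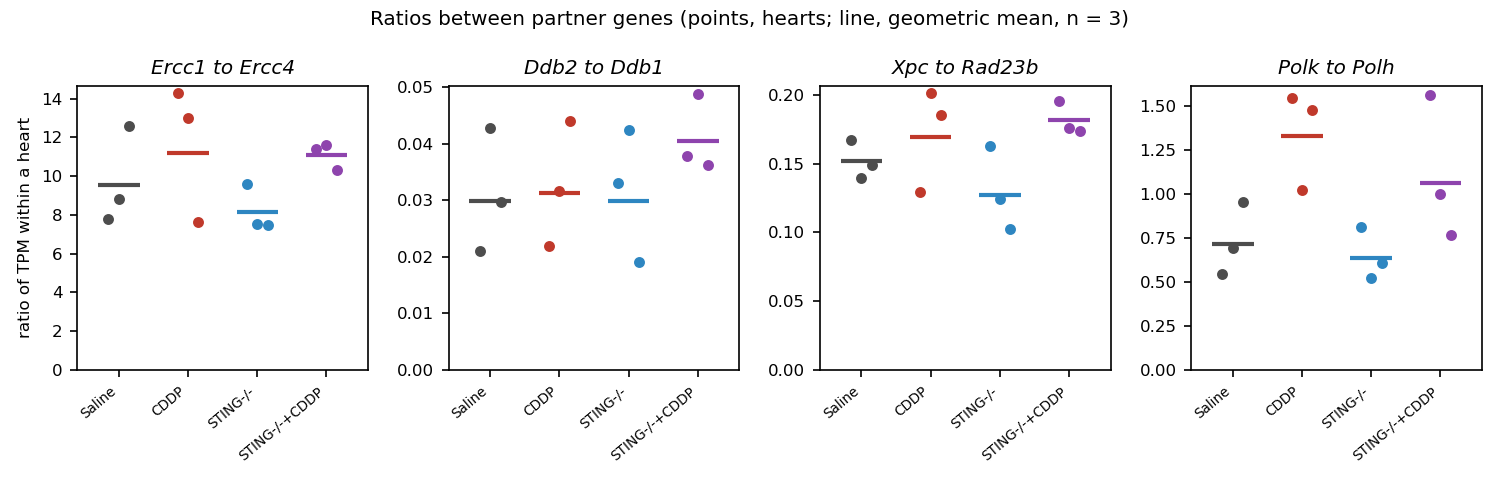
Ratio of TPM between partner genes within each heart (vertical axes, linear and starting at 0) by group. Points are hearts and lines are geometric means (n = 3). The Polk to Polh ratio is 1.02 or above in every CDDP heart and below 1 in every untreated heart, and the other 3 ratios overlap between CDDP and Saline hearts.

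Of 25 other recognition and incision genes, 4 rose and 2 fell in CDDP against Saline hearts, where 8.52% of all tested genes rose and 10.4% fell. The list median was 0.17. Uvssa, which stabilises the stalled-polymerase branch of the pathway, rose by 0.70 (limma adjusted p = 0.0211), and Cul4b, a ubiquitin ligase scaffold used by DDB2, by 0.72 (adjusted p = 0.0393). Uvssa was at 0.72 to 0.99 TPM in Saline and 0.88 to 1.02 in STING-/- hearts. It thus passed the expression filter only through cisplatin hearts, where it was high. Ddb1 rose by 0.58 and Rpa2, a subunit of the single-strand binding protein RPA, by 0.59. Rpa3, another RPA subunit, fell by 0.86 (adjusted p = 0.0045), and Ccnh, the cyclin of the TFIIH kinase, fell by 0.49 (adjusted p = 0.0344). None of the 25 passed in STING-/- hearts.

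Of 17 gap filling and ligation genes 1 rose in wild-type hearts, where 8.52% of all tested genes rose. It was Pcna, the sliding clamp that carries both replicative and bypass polymerases. Pcna was at 33.83, 35.72 and 28.11 TPM in Saline, 51.66, 45.55 and 63.43 in CDDP, 28.98, 32.20 and 25.91 in STING-/- and 32.85, 33.37 and 24.56 in STING-/-+CDDP hearts. Only the CDDP hearts stood apart. Pcna rose by 0.69 (limma adjusted p = 0.0176) with cisplatin in wild-type hearts and was lower in STING-/-+CDDP than in CDDP hearts by -0.80 (adjusted p = 0.0496), which none of the 10 genes was. Its interaction term of -0.64 did not pass (limma adjusted p = 0.377), so a difference in response between genotypes was not shown for Pcna either. Of 11 tested translesion genes outside the 10, 1 rose in wild-type hearts, against 8.52% of all tested genes. This was Mad2l2, the REV7 subunit of polymerase zeta, which rose by 0.66 (limma adjusted p = 0.0182). Over both genotypes Mad2l2 and Ube2b, the RAD6 enzyme that modifies PCNA, rose by 0.47 and 0.32, where 7.28% of all tested genes rose.

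Genes for repair of crosslinks between strands did not move together. Of 26 genes 16 were tested. In wild-type hearts, where 8.52% of all tested genes rose and 10.4% fell, none rose and 1 fell. This was Faap100, a subunit of the Fanconi core complex, at 6.57, 5.79 and 4.69 TPM in Saline and 2.35, 2.57 and 2.16 in CDDP hearts (fell by 0.98, limma adjusted p = 0.00207). Faap100 was higher in STING-/-+CDDP than in CDDP hearts by 0.72 (limma adjusted p = 0.0475), and its interaction term of 0.55 did not pass (0.382). Over both genotypes Fance rose by 0.44 and Mus81, a structure-specific nuclease, fell by 0.67.

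Xpc, Ddb2, Polk and Polh have been described as p53 targets, mainly in human cells, and none of them passed with cisplatin in the fit of all 12 hearts with unscaled TPM and equal weights. Over both genotypes Xpc, Ddb2 and Polk passed with array weights (adjusted p = 0.0157, 0.038 and 0.02), whereas Polh passed in no alternative tried and in no fit without a single heart. Of 22 tested genes on a list of other p53 targets, 8 rose and 1 fell in wild-type hearts (median 0.62), and 12 rose and 1 fell over both genotypes (median 0.63), where 7.28% of all tested genes rose. Cdkn1a, the cell cycle inhibitor p21, rose by 1.94 (limma adjusted p = 0.000149) over both genotypes and Trp53inp1 by 1.85 (adjusted p = 0.000372). Ccng1, a p53 target as well, fell by 0.95 (adjusted p = 0.000476). Of the 10 proliferation genes tested, 1 rose and 2 fell in wild-type hearts, where 8.52% of all tested genes rose and 10.4% fell. Mcm4, part of the replicative helicase, rose by 0.86 and Cdk1 fell by 1.59. Birc5, a mitotic gene also called lower, reached 1 TPM in the 3 Saline hearts alone and so passed the expression filter only through the group where it was high.

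**Figure D5:**
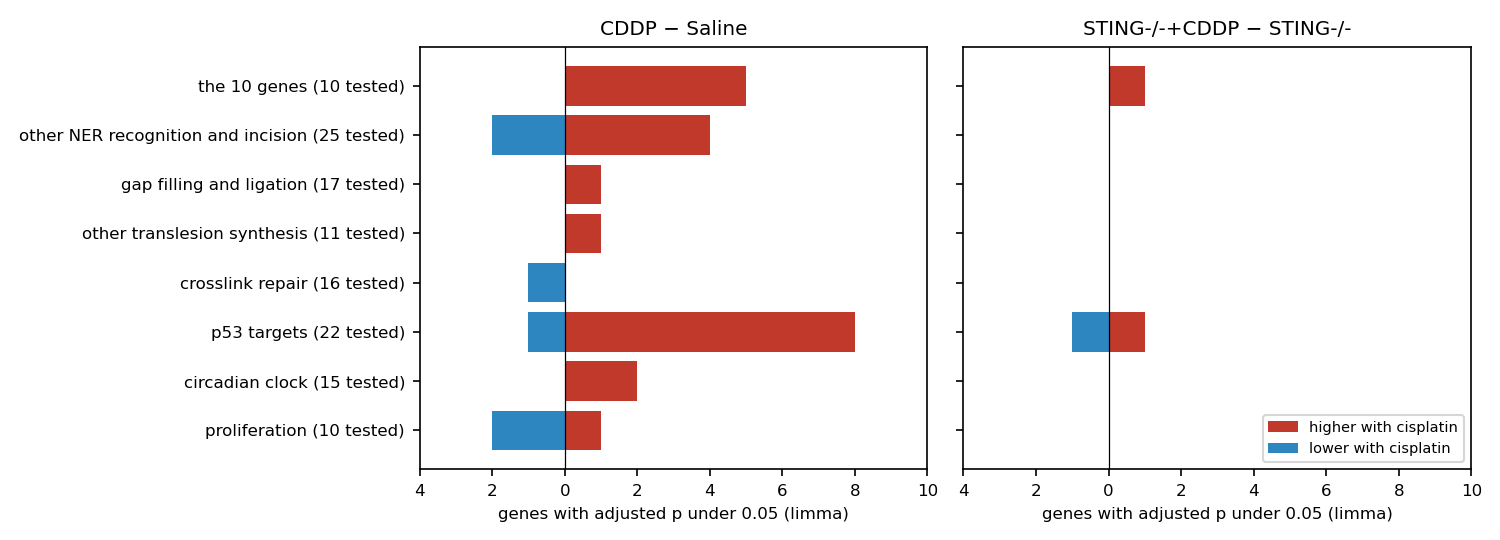
Number of genes per list with an adjusted p under 0.05 (horizontal axes), higher with cisplatin to the right of 0 and lower to the left, in wild-type hearts (left panel) and STING-/- hearts (right panel). The number of genes tested stands after each list name. The 10 genes give 5 and 1, the p53 targets 8 higher and 1 lower in wild-type hearts, and the crosslink repair genes none higher.

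The transcript of Xpa follows the circadian clock in mouse liver, and the hour of collection is not given in the sources used here. Of 15 clock genes, 2 rose in CDDP against Saline hearts (Per1 by 0.94 and Cry2 by 1.17), where 8.52% of all tested genes rose. Over both genotypes Cry2 rose and Dbp and Bhlhe41 fell, where 19.8% of all tested genes passed. Dbp, a clock output gene, was at 10.91, 81.14 and 14.26 TPM in Saline hearts and 95.76 to 115.06 TPM in STING-/- hearts, so the untreated hearts differed among themselves. The part of the clock in the level of Xpa was not tested.

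Marker genes of other cell types moved with cisplatin in the same hearts. The 8 macrophage markers summed to 533.5 to 679.1 TPM in Saline and 150.5 to 310.7 in CDDP hearts (6 of 8 lower), and to 485.3 to 722.4 and 207.8 to 401.5 in STING-/- and STING-/-+CDDP hearts. Of 6 endothelial markers 4 were lower in CDDP hearts (summed 589.2 to 694.2 TPM in Saline and 375.3 to 491.6 in CDDP), and 5 of 5 red blood cell markers were lower. The endothelial sums overlapped in STING-/- (384.4 to 550.2 TPM) and STING-/-+CDDP hearts (391.2 to 574.3 TPM). Red blood cell markers summed to 4146 to 9317 TPM in Saline and 41.95 to 1271 in CDDP hearts. They summed to 263.7 to 1465 TPM in STING-/- and 81.93 to 311.1 in STING-/-+CDDP hearts, so the untreated groups differed in range. Of 6 fibroblast markers 3 were lower, the matrix genes Col1a1, Col3a1 and Lum. Dcn (0.73), Pdgfra (-0.11) and Tcf21 (-0.20) did not pass. The fibroblast sum overlapped, at 785.8 to 1860 TPM in Saline and 973.3 to 2067 in CDDP hearts. The 6 neutrophil markers summed to 1112 TPM in CDDP 1 and to 27.34 to 44.2 in the other CDDP hearts. The 6 lymphocyte markers summed to at most 4.52 TPM in any heart. No marker on these lists was at 0 in all 12 hearts. The 8 cardiomyocyte markers summed to 23060 to 47170 TPM over the 12 hearts, and 1 of 8 was higher and 1 lower in CDDP hearts. Actc1, cardiac actin, fell by 3.55 (limma adjusted p = 0.00181) and Tnnt2, cardiac troponin T, rose by 0.56 (adjusted p = 0.0137), while Nppb, a natriuretic peptide gene, was at -2.60 (adjusted p = 0.0514). The methods of the study name cardiac tissue, without saying which part of the heart was taken. In RNA from such tissue, fewer cells of a type and less RNA per cell cannot be told apart. The part of cell makeup in the levels of the 10 genes was not tested.

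The 4 atrial markers were uneven, at 310.2, 38940 and 338.7 TPM in Saline and 3793, 853.7 and 14620 in CDDP hearts. With the atrial marker level as a covariate, 4 of the 10 genes passed in wild-type hearts, and Xpa did not (0.68, limma adjusted p = 0.0772). Over both genotypes 5 passed in that fit. Among all 13815 tested genes 2880 passed in wild-type hearts and 3566 over both genotypes. Fat markers ranged from 0.34 to 160.1 TPM over the 12 hearts. Saline 2 and CDDP 3, the wild-type hearts with most atrial transcript, were also the highest of their groups for Ddb2, Ercc4, Ercc5, Polk, Polh and Rev1. Of these genes, Ercc4 and Ercc5 passed in wild-type hearts. Without Saline 2 and CDDP 3, 3 of the 10 genes passed in wild-type hearts, as did 1961 of 13815 tested genes. Xpa was then higher by 0.74 (limma adjusted p = 0.0985) and Ercc4 by 0.45 (adjusted p = 0.126). Sting1 transcript was at 12.28, 6.59 and 6.50 TPM in Saline, 22.11, 5.62 and 8.81 in CDDP, 3.82, 5.96 and 2.87 in STING-/- and 4.26, 4.67 and 3.37 in STING-/-+CDDP hearts. It was thus present in all knockout hearts, and the allele's effect on the transcript is not given in the sources used here. The total depth of each library is unknown, since TPM keeps no read counts, and the share of mitochondrial transcripts was 18.778% to 27.601%.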

How the data were processed

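RNA-seq was performed by the authors on 12 hearts. The deposited table gives TPM per gene, to 2 decimals, with the same total in each heart. The submitters' processing notes name fastp, HISAT, RSEM and GRCm38.p5, without versions. The strand setting, counts and depth are not given in the sources used here, so no counting interval was made. The authors' 4 mean columns were left out. TPM values were used as log2(TPM + 1). Genes with 1 TPM or more in no fewer than 3 hearts (13815) were fitted together in limma 3.58.1 (R 4.3.3) with trended empirical Bayes, all 12 hearts in 1 model, two-sided, Benjamini-Hochberg adjusted over all tested genes. p-values measure the spread between hearts, taken as separate mice. Exact permutation tests were two-sided. Positions came from GENCODE M21 (55141 of 55885 identifiers matched) and promoters from RefSeq (GRCm38.p6). Neighbours were genes sharing exonic bases or starting within 1000 bases upstream on the other strand. The 10 genes and all lists were chosen with earlier results of these data known. All 10 were named, and from each other list the genes with the largest called changes in each direction. Ddb1, Rpa2 and the overlapping neighbours were named after their values were seen, as were both atrial alternatives. Figures were drawn with matplotlib 3.10.9. Other pseudocounts, filters, scalings, weights and single-heart omissions were tried. A clock gene and a promoter window are not reported here.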

Additional observations from a re-analysis of the deposited data

How the results depend on the processing

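Of the 10 genes, 5 passed in CDDP against Saline hearts, as did 2610 of 13815 tested genes. The number of all tested genes that passed in the same fit stands in brackets below. The number was 2 with no expression filter (2086 of 27721) and 0 when the fit held the compared groups alone (822 of 13815). It was 3 with the replicate block (2175) and 3 without both hearts high in atrial transcript (1961). With the atrial level as a covariate (2880) or with array weights (2939) it was 4. A filter at 5 TPM, which tests 6 of the 10, also gave 4 (2064 of 9427). Poln passed that filter only through cisplatin hearts, where it was high, so its call there adds no support. Median of ratios gave 6 (Xpc added, 3810 of 13747) and quantile normalization 7 (Xpc and Polk added, 3904 of 13815). Without single hearts the number was 1 to 4 (1241 to 2548 of 13815). It was 1 without Saline 1 or CDDP 2, 2 without Saline 3, and 3 without Saline 2, CDDP 3, STING-/- 3 or STING-/-+CDDP 1. In STING-/- hearts 1 passed (129 of 13815). The number was 0 with a pseudocount of 0.1 (104 of 13815) or with no filter (46 of 27721). It was 2 with array weights (613 of 13815) and 0 to 1 without single hearts (15 to 203 of 13815). The number was 0 without any one heart of either STING-/- group. Over both genotypes 5 passed (2740 of 13815), and 3 did with no filter (2284 of 27721) and 7 with median of ratios (3811 of 13747). The number was 8 with quantile normalization (3962 of 13815) or array weights (3658 of 13815), and 2 to 6 without single hearts (1887 to 2653 of 13815). It was 2 without Saline 1 or STING-/-+CDDP 1, and 3 without STING-/- 1 or STING-/- 3. Fits without a heart have fewer samples, and the no-filter fit adjusts over more genes. Other causes were not tested. The number was 0 for both genotype comparisons and the interaction in every alternative run. Without single hearts the log2 differences in the 4 ratios ran from 0.68 to 0.93 (Polk to Polh), 0.25 to 0.48 (Ercc1 to Ercc4), 0.26 to 0.43 (Xpc to Rad23b) and 0.094 to 0.386 (Ddb2 to Ddb1). The interaction of Polh ran from -0.0731 to 0.244. Of 22 differences shown only in the plot of differences, 13 changed sign in some alternative (changed values -0.12 to 0.27), none with an adjusted p under 0.05. Deviations from the group mean correlated at -0.333 to 0.261 between hearts of equal number and at -0.312 to 0.431 between hearts of unequal number. These overlapping ranges cannot decide whether equal numbers share a batch. With the replicate block 3, 1 and 4 genes passed in wild-type hearts, in STING-/- hearts and over both genotypes. Among all 13815 tested genes 2175, 114 and 2343 did.

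The median log2 difference of all tested genes with cisplatin in STING-/- hearts was -0.11, and 0.01 with median of ratios and 0.02 with quantile normalization. The share of calls that were higher moved from 27.1% to 51.0% and 55.9% there (35.8% without mitochondrial genes), from 36.7% to 51.7% and 51.4% over both genotypes, and from 29.8% to 42.2% and 46.8% (39.4% without mitochondrial genes) between STING-/-+CDDP and CDDP hearts. Depth is unknown from TPM, so no counting limit can be given for low-level genes such as Polk, Ddb2 and, without cisplatin, Poln.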
